A study of Mus musculus with 8 samples.

Results

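A set of 10 autophagy genes was followed on polysomes, the groups of ribosomes that carry mRNAs under translation, as the mouse egg becomes a one-cell embryo. The genes are Ulk1, Becn1, Atg7, Atg3, Atg12, Atg5, Map1lc3a, Map1lc3b, Gabarap and Sqstm1, matched by gene symbol in the array annotation. The set was chosen with earlier results of these data known. They are among 18193 genes named on the array and are read by 28 of its 45037 probe sets, each a group of short probes against 1 transcript. Polysomal RNA was hybridized to 8 arrays, 4 from oocytes at the metaphase II (MII) arrest and 4 from one-cell embryos given alpha-amanitin, which blocks RNA polymerase II. Each sample pooled 160 to 500 eggs or embryos of the mouse, Mus musculus. The sources used here do not name the strain, the age or the hours after fertilization. Stage and alpha-amanitin changed together and cannot be told apart.

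Autophagy encloses cytoplasm in a double membrane and delivers it to the lysosome. The kinase Ulk1 starts the process, and a lipid kinase complex built on Becn1 marks the membrane. The E1-like enzyme Atg7 and the E2-like enzyme Atg3 then join the ubiquitin-like Atg8 proteins, which include Map1lc3a, Map1lc3b and Gabarap, to a membrane lipid, with the help of the conjugate of Atg12 and Atg5. Receptors such as Sqstm1 bind both cargo and Atg8 proteins. In the mouse, autophagy is known to be induced soon after fertilization, and oocytes without Atg5 fertilized by sperm without Atg5 give embryos that fail before implantation.

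On the brightest probe set of each gene, the 3 Atg8 members of the set rose in one-cell embryos. Ulk1, Becn1 and Atg3 fell, while Atg7, Atg12, Atg5 and Sqstm1 did not pass the test. Of all 12359 genes read in this way, 20.1% rose and 14.7% fell. The 6 calls among the members are not equally firm. Map1lc3b and Ulk1 each lost the call under several alternatives, and Becn1 did not pass averaged over its 5 probe sets (limma adjusted p = 0.214). Averaged in the same way, Map1lc3b did not pass either (0.068), while Atg12 passed as higher (0.011). The Atg12 average is limited by a probe set that passed the brightness filter mainly through the one-cell arrays. Map1lc3a rose most, with a mean signal 14.1-fold higher on its brightest probe set but 3.56-fold higher on the other. Atg3 fell most, with a mean signal 3.89-fold lower. Signals are linear intensities in arbitrary units. Log2 changes subtract the MII mean from the one-cell mean of log2(signal + 10), carry the limma standard error (SE) and understate the change of dim probe sets. Genes passed at a Benjamini-Hochberg adjusted p under 0.05 in limma over all 23336 probe sets kept. Probe sets brighter than the array median on 4 or more of the 8 arrays were kept, which holds for 21 of the 28. Levels of different probe sets are not comparable, so the genes are not ranked by level.

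**Figure D1:**
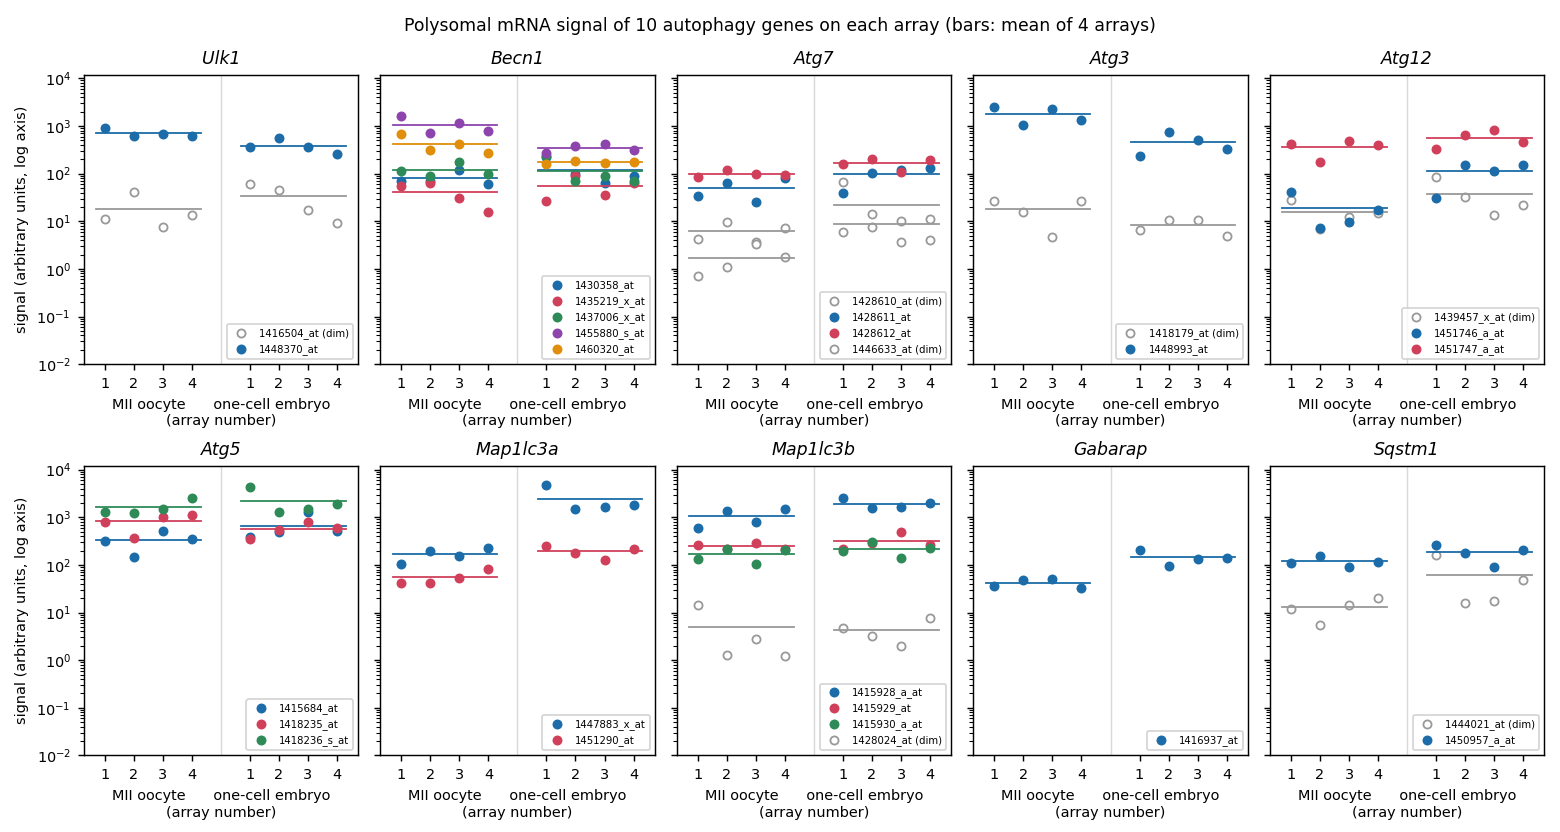
Signal of each of the 28 probe sets of the 10 genes on each of the 8 arrays, in arbitrary units on a log axis, with array numbers on the x axis and MII oocytes left of one-cell embryos. Filled points are tested probe sets, open grey points are the 7 too dim to test, and bars are means of 4 arrays; both Map1lc3a probe sets and Gabarap lie higher on every one-cell array than on any MII array, and Atg3 (1448993_at) lies lower.

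The arrays were of unequal quality. The median signal of one-cell array 1 was 71.8, where the others had 26.9 to 37.9. Its 18 hybridization controls had a geometric mean of 14880, and those of the remaining one-cell arrays 857.3 to 3718. The 3′ probe set for 18S ribosomal RNA was brighter on every one-cell array, by 11.3-fold on average (two-sided exact permutation p = 0.0286, the smallest that 4 against 4 arrays allow). The 75th percentile of signal was also higher on every one-cell array, at 108.8 to 171.7 against 81.5 to 96.8 (MII). This is 1.43-fold on average (exact permutation p = 0.0286). All 10 oocyte markers examined lay above the median on all 8 arrays. Of 12 measured cumulus and granulosa cell markers 3 did so. Their summed signal was 539.2 to 746.8 on the MII arrays and 469.2 to 1525 (one-cell), and 1 of them, Cyp11a1, was higher in one-cell embryos, while Amh lay below the median on all 8 arrays. The 5 blood and immune markers summed to 184.6 to 215.1 (MII) and 124.9 to 372.3 (one-cell), and none of them lay above the median on every array. The 6 sperm markers summed to 145.7 to 225.3 and 166.3 to 444.6, with Prm2 higher in one-cell embryos. Akap4 lay above the array median on 4 of 4 MII arrays and 0 of 4 one-cell arrays. It was thus kept through the group where it is high, and its mean signals, 88.4 (MII) and 19.85 (one-cell), are given with no test. The part of these differences in the results was not tested. The submitters' design text calls the 4 samples of each group independent. Signals are relative to each array's total. Only polysomal RNA was hybridized, so less of an mRNA in the egg and less of it on ribosomes cannot be told apart.

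Ulk1, the kinase that starts autophagosome formation, was lower on all 4 one-cell arrays. Its tested probe set (1448370_at) gave 892.7, 627.0, 661.9 and 606.5 on MII arrays 1 to 4 and 360.4, 548.2, 369.7 and 253.8 on the one-cell arrays. The groups did not overlap, with one-cell array 2 nearest to the oocytes. The mean fell from 697 ± 132 (SD, n = 4) to 383 ± 122, a log2 change of -0.88 ± 0.29 (SE, limma adjusted p = 0.0281). This is the smallest fall among the members, and the call changed with the arrays used. It was lost without MII array 1 (-0.76, adjusted p = 0.092) or 3 (-0.90, 0.0596) and without one-cell array 3 (-0.88, 0.0502) or 4 (-0.71, 0.107), although the direction held in each. It was also lost with each array centred on its median (-1.20, adjusted p = 0.0505) and with the hybridization controls as a covariate (-0.78, 0.0992). The other Ulk1 probe set (1416504_at) was too dim to test, at 7.4 to 40.7 in oocytes and 9.4 to 59.5 in embryos.

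Becn1, the scaffold of the autophagy lipid kinase complex, gave different answers on its probe sets. The brightest (1455880_s_at) read 1627, 720.4, 1130 and 791.7 in MII oocytes and 266.9, 380.4, 423.4 and 320.3 in one-cell embryos. Every embryo value lay below every oocyte value, and the log2 change was -1.54 ± 0.31 (SE, limma adjusted p = 0.00106). The next brightest (1460320_at) read 683.2, 316.7, 414.8 and 272.5 in oocytes and 158.9, 186.5, 166.2 and 177.4 in embryos, a change of -1.16 ± 0.31 (adjusted p = 0.00783). It too showed no overlap, and the embryo values were the tighter group, at 172 ± 12.2 (SD, n = 4) against 422 ± 184.

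The other 3 Becn1 probe sets were dimmer, between 15.7 and 231.4 on all arrays, with overlapping groups. Their log2 changes were 0.41 ± 0.38 (1430358_at), 0.31 ± 0.46 (1435219_x_at) and -0.16 ± 0.38 (1437006_x_at), and none passed the test. Averaged over all 5 probe sets, Becn1 changed by -0.43 ± 0.25 (SE, limma adjusted p = 0.214). With signals as deposited, the fall of the gene therefore rests on its 2 bright probe sets. The dimmer 1437006_x_at passed as lower under 1 alternative, quantile normalization without one-cell array 1 (-0.82, adjusted p = 0.0477). Within each array, 1455880_s_at moved further down than 1430358_at by 1.95 on the log2 scale (exact permutation p = 0.0286, adjusted p = 0.0776 over 19 pairs of probe sets of the same gene). In the annotation, the ending s marks a probe set that can read several transcripts, and the ending x one whose probes can bind unrelated ones.

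Atg3, the E2-like enzyme that transfers Atg8 proteins to lipid, showed the largest fall of the 10 genes. Its tested probe set (1448993_at) read 2466, 1023, 2247 and 1351 in MII oocytes and 238.8, 732.6, 513.1 and 334.8 in one-cell embryos. The lowest oocyte array, number 2, was still above the highest embryo array, also number 2. The mean fell from 1771 ± 694 (SD, n = 4) to 455 ± 217, a log2 change of -1.97 ± 0.37 (SE, limma adjusted p = 0.000697). The call held with each array left out in turn, where the change lay between -2.24 and -1.71. Its dim probe set (1418179_at) read 4.6 to 27.0 in oocytes and 4.9 to 10.8 in embryos and was not tested.

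Atg7, the E1-like enzyme upstream of Atg3, did not pass the test on either tested probe set. Its brighter probe set (1428612_at) read 85.9, 120.3, 99.2 and 94.0 in MII oocytes and 155.8, 202.6, 106.7 and 189.5 in one-cell embryos. Only one-cell array 3 lay within the oocyte range. The log2 change was 0.63 ± 0.30 (SE, limma adjusted p = 0.127), with a 95% interval from -0.01 to 1.27. The second probe set (1428611_at) read 24.8 to 80.0 in oocytes and 40.0 to 128.9 in embryos, a change of 0.83 ± 0.42 (adjusted p = 0.155) that passed when one-cell array 1 was left out (1.17, adjusted p = 0.0152). The difference between Atg7 and Atg3 was not tested. The remaining Atg7 probe sets were too dim to test. One (1428610_at) read 3.6 to 9.5 in oocytes and 6.0 to 10.9 in embryos, and the other (1446633_at) read 0.7 to 3.3 in oocytes and 65.5, 14.4, 3.7 and 4.0 in embryos.

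Atg12, the ubiquitin-like partner of Atg5, gave 1 rise among 2 tested probe sets. The brighter one (1451747_a_at) read 413.6, 175.3, 486.7 and 401.2 in MII oocytes and 327.8, 651.6, 821.7 and 470.3 in one-cell embryos. These groups overlapped, through one-cell arrays 1 and 4, and the change of 0.62 ± 0.36 (SE, limma adjusted p = 0.214) did not pass. The dimmer one (1451746_a_at) read 40.7, 7.3, 9.6 and 16.8 in oocytes and 30.9, 152.2, 110.9 and 153.4 in embryos, a rise of 2.04 ± 0.51 (adjusted p = 0.00536).

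That rise starts from signals above the array median on only 1 MII array, and on one-cell array 1 the probe set lay below its median too, so its size is poorly set. Its 1 MII and 3 one-cell arrays above the median are just the 4 that the filter asks for. It was therefore kept mainly through the group where it is high, a limit on its call and on the average below. With no filter its limma adjusted p was 0.0121. The call was lost after quantile normalization (1.65, adjusted p = 0.0515) and with each array centred on its median (1.72, 0.0578). Averaged over both probe sets, Atg12 changed by 1.33 ± 0.37 (SE, limma adjusted p = 0.0112). The third Atg12 probe set (1439457_x_at), at 6.9 to 28.0 in oocytes and 13.3 to 83.6 in embryos, was not tested.

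Atg5, the protein to which Atg12 is joined, did not pass on any of its 3 probe sets. The brightest (1418236_s_at) read 1316, 1202, 1464 and 2515 in MII oocytes and 4274, 1319, 1514 and 1864 in one-cell embryos. One-cell array 1 stood above all others and the remaining embryo arrays lay inside the oocyte range. The log2 change was 0.36 ± 0.38 (SE, limma adjusted p = 0.53), and without that array it was -0.004 (adjusted p = 0.995).

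The 2 other Atg5 probe sets leaned opposite ways. One (1415684_at) read 318.5, 145.3, 526.3 and 343.4 in oocytes and 380.8, 482.1, 1298 and 519.5 in embryos, a change of 0.95 ± 0.41 (SE, limma adjusted p = 0.0898). The other (1418235_at) read 804.6, 370.1, 1018 and 1109 in oocytes and 350.5, 543.6, 778.0 and 602.1 in embryos, a change of -0.47 ± 0.36 (adjusted p = 0.361). Within arrays the change of the first exceeded that of the second by 1.42 on the log2 scale (exact permutation p = 0.0286, adjusted p = 0.0776 over the 19 pairs). The first passed without MII array 3 (1.20, adjusted p = 0.0471), without one-cell array 1 (1.16, 0.0392) and with the control covariate (1.66, 0.00711). Averaged over its 3 probe sets, Atg5 changed by 0.28 ± 0.29 (adjusted p = 0.512).

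Map1lc3a, an Atg8 protein of the LC3 group, showed the largest change of any member. Its brighter probe set (1447883_x_at) read 102.9, 198.4, 155.3 and 228.4 in MII oocytes and 4688, 1467, 1656 and 1828 in one-cell embryos. The lowest embryo array was several times brighter than the highest oocyte array. The log2 change was 3.62 ± 0.37 (SE, limma adjusted p = 2.47e-06). One-cell array 1, the array with the bright controls, gave the highest value. Without it the change was 3.24 ± 0.29 (adjusted p = 1.02e-06), and with the controls as a covariate it was 2.96 ± 0.34 (2.70e-05).

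The other Map1lc3a probe set (1451290_at) rose as well, from 41.8, 41.5, 52.9 and 81.5 in oocytes to 254.1, 181.8, 124.7 and 214.8 in embryos. Its change was smaller, at 1.66 ± 0.33 (SE, limma adjusted p = 0.00104), again without overlap. The difference between the 2 probe sets was 1.96 on the log2 scale (exact permutation p = 0.0286, adjusted p = 0.0776 over the 19 pairs). The direction of Map1lc3a therefore held on both probe sets, and its size depends on the probe set. The larger change is that of the probe set with the ending x, whose probes can bind unrelated transcripts. Averaged over both, the change was 2.64 ± 0.30 (adjusted p = 1.61e-05).

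Map1lc3b, the LC3 protein most used to follow autophagosomes, lay close to the threshold of the test. Its brightest probe set (1415928_a_at) read 603.5, 1351, 809.1 and 1494.6 in MII oocytes and 2572, 1530, 1604 and 1970 in one-cell embryos. The groups did not overlap, but one-cell array 2 lay close to MII array 4. The log2 change of 0.91 ± 0.33 (SE, limma adjusted p = 0.0477) passed narrowly, and it fell short without MII array 1 (0.67, adjusted p = 0.178) or 3 (0.81, 0.139) and without one-cell array 1 (0.76, 0.0777), 3 (0.98, 0.0562) or 4 (0.88, 0.101). It was also short with each array centred on its median (0.59, adjusted p = 0.308) and with the control covariate (0.54, 0.304).

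The other tested Map1lc3b probe sets overlapped between the groups. One (1415929_at) read 210.9 to 295.0 in oocytes and 215.3 to 499.7 in embryos, a change of 0.31 ± 0.30 (SE, limma adjusted p = 0.498). The other (1415930_a_at) read 102.9 to 218.3 and 142.4 to 303.0, a change of 0.39 ± 0.33 (adjusted p = 0.416). Both values turned slightly negative after quantile normalization (-0.09 and -0.08). Averaged over the 3 probe sets, Map1lc3b changed by 0.53 ± 0.21 (adjusted p = 0.0684), so its rise is weakly set. The last probe set (1428024_at), at 1.2 to 14.3 in oocytes and 2.0 to 7.5 in embryos, was not tested.

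Gabarap, from the other branch of the Atg8 family, rose on its only probe set (1416937_at). The signals were 36.7, 49.3, 50.8 and 33.1 in MII oocytes and 208.3, 92.7, 130.8 and 142.5 in one-cell embryos. All embryo values exceeded all oocyte values. The mean rose 3.38-fold, from 42.5 ± 8.89 (SD, n = 4) to 144 ± 48.1, and the log2 change was 1.51 ± 0.34 (SE, limma adjusted p = 0.00246). The oocyte signals lay close above the array medians. The rise was 1.33 without one-cell array 1 and between 1.33 and 1.69 over all arrays left out in turn, and it passed the test each time.

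Sqstm1, the p62 receptor that brings ubiquitinated cargo to Atg8 proteins, did not pass. Its tested probe set (1450957_a_at) read 111.7, 151.6, 91.5 and 117.4 in MII oocytes and 256.4, 181.2, 92.3 and 204.6 in one-cell embryos. All embryo arrays but 1 were above every oocyte array, and one-cell array 3 was among the lowest of the oocyte values. The log2 change was 0.53 ± 0.33 (SE, limma adjusted p = 0.254), with a 95% interval from -0.17 to 1.24. The dim probe set (1444021_at) read 5.6 to 20.4 in oocytes and 162.2, 15.8, 17.6 and 47.1 in embryos, the highest again on one-cell array 1.

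**Figure D2:**
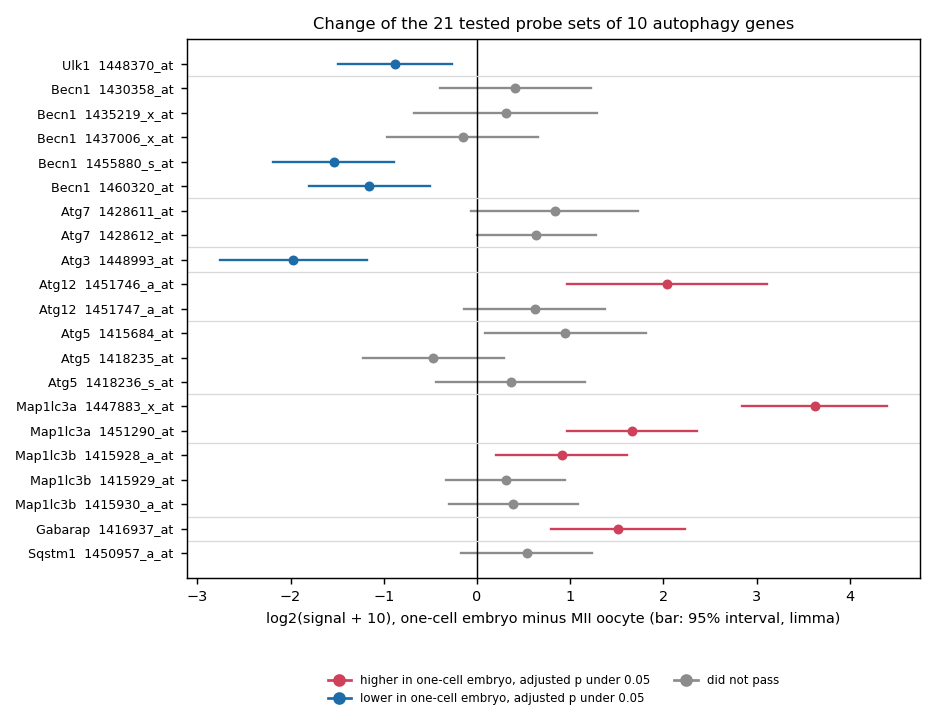
Log2 change from MII oocyte to one-cell embryo, with an offset of 10, of the 21 tested probe sets of the 10 genes, with 95% limma intervals. Points in red (5) passed as higher in one-cell embryos, points in blue (4) as lower and grey points (12) did not pass; the Atg8 family holds 4 of the 5 rises, and the falls are those of Ulk1, Becn1 and Atg3.

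Over the 21 tested probe sets, 5 rose, 4 fell and 12 did not pass. Of the 5 rises, that of Atg12 (1451746_a_at) was kept mainly through the one-cell arrays. Of all 23336 probe sets, 19.3% rose and 12.8% fell, 32.1% in all, against 42.9% of the member probe sets. The groups did not overlap in 8 of the 21, against 32.6% of all probe sets. By gene, on the brightest probe set of each, 3 rose and 3 fell among 10, against 20.1% and 14.7% of 12359 genes. These 6 genes are also those without overlap, against 35.2% of all genes. In the mean over the probe sets of each gene 3 rose (Map1lc3a, Gabarap and Atg12) and 2 fell (Ulk1 and Atg3). Of all genes 22.1% rose and 12.8% fell in that reading. The Atg12 mean includes the probe set kept mainly through the one-cell arrays, a limit on its call. The median change was 0.41 over the 21 probe sets and 0.17 over all probe sets. No test set these shares, or the split of rises and falls by role, against the rest of the array. The members were chosen with earlier results of these data known, a further limit on the shares.

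The balance of rises and falls over the whole array depended on the scaling. Of the probe sets past the test, 60.2% were higher with signals as deposited, 48.7% after quantile normalization and 50.8% with each array centred on its median. The median change of all probe sets was then -0.12 and -0.15. Relative to the median of all probe sets as deposited, Map1lc3a (1447883_x_at) changed by 3.45, Gabarap by 1.34, Map1lc3b by 0.74, Ulk1 by -1.05, Becn1 (1455880_s_at) by -1.71 and Atg3 by -2.14. None of these 6 changed direction under either scaling.

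**Figure D3:**
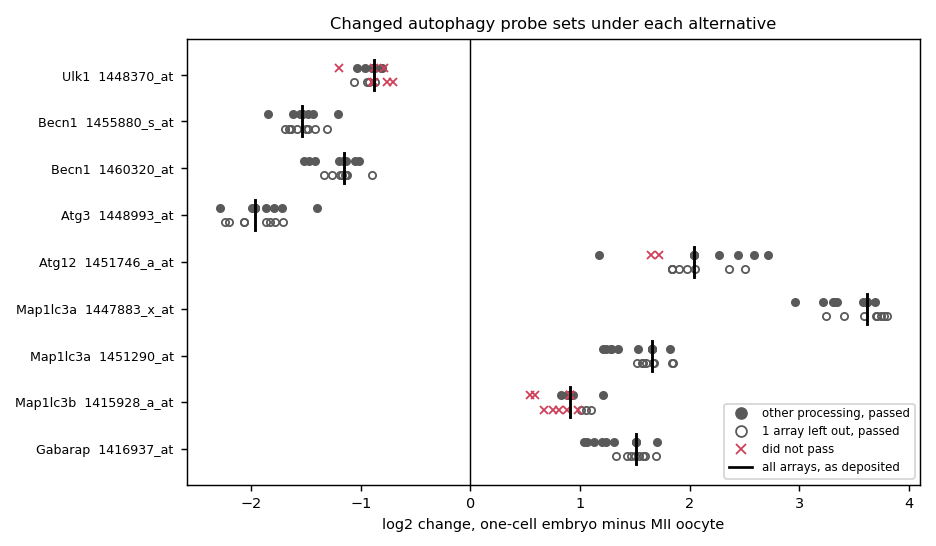
Log2 change of the 9 member probe sets past the test (black bars) beside its value under 11 other processing settings (upper symbols) and with each of the 8 arrays left out (lower symbols). Red crosses mark settings where the call was lost, which were found for Ulk1, Map1lc3b and Atg12, while the 2 Becn1, 2 Map1lc3a, Atg3 and Gabarap probe sets passed in every setting that tested them; the filter at the 75th percentile left Gabarap and Atg12 (1451746_a_at) untested.

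The rest of the pathway was read from a list of 60 other autophagy genes, also chosen with earlier results of these data known. Of these, 58 were matched to a probe set with a single symbol and 51 were kept. On the brightest probe set of each, 12 rose, 12 fell and 27 did not pass, which is 47.1% changed against 34.8% of all genes (20.1% higher and 14.7% lower). The even split depended on the reading. With the mean over the probe sets of each gene 17 rose and 8 fell, where 22.1% and 12.8% of all genes did (34.9% in all). With the hybridization controls as a covariate 16 rose and 8 fell, where 17.9% and 10.2% of all genes did (28% in all). The list's median change on the brightest probe sets was 0.22, close to the 0.16 of all genes. Of its 7 groups by role, 5 held both rises and falls. The groups did not overlap in 24 of the 51 genes, against 35.2% of all genes. The list's 12 largest changes past the test without overlap were 9 rises and 3 falls. The 9 include Atg13, which was kept through the one-cell arrays alone. This split was not set against the largest changes of all genes.

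In the initiation complex, the scaffold Atg13, which binds Ulk1, was measured by 1 probe set that was kept through the one-cell arrays alone. It lay above the array median on 0 of 4 MII arrays and on 4 of 4 one-cell arrays, so it passed the filter through the group where it is high. Its values are given with no test, although it is 1 of the 12 rises. Its signals were 6.5, 10.7, 13.8 and 31.7 in MII oocytes and 338.0, 169.8, 205.3 and 330.2 in one-cell embryos, a log2 difference of 3.43 whose size is poorly set. The 3 other measured genes, Ulk2, Rb1cc1 and Atg101, did not pass on their brightest probe sets, while Rb1cc1 fell in the mean over its probe sets (-0.77, limma adjusted p = 0.0202). In the lipid kinase complex of Becn1, 2 of 7 measured genes rose (28.6%, against 20.1% of all genes) and none fell (against 14.7%). They were Ambra1, a Becn1-binding regulator (2.46 ± 0.31, from 136 ± 16.4 to 831 ± 285, SD, n = 4), and Uvrag, a subunit of one form of the complex (1.49 ± 0.33), which did not pass with each array centred on its median (1.17, adjusted p = 0.113). Rb1cc1 and Uvrag were chosen for naming after their values were seen.

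Among genes that supply membrane, Atg9a, the transmembrane protein of the vesicles that seed the structure, rose. Its signals were 45.7, 47.0, 66.5 and 63.3 in MII oocytes and 326.4, 278.1, 551.6 and 541.5 in one-cell embryos, a change of 2.68 ± 0.31 (SE, limma adjusted p = 8.51e-06). One other, Atg2b, fell (-1.50 ± 0.41), although the mean of its 2 kept probe sets did not pass (-0.27, adjusted p = 0.541). The remaining 7 of 9 did not pass on their brightest probe sets, but 3 of them passed as higher in the mean over their probe sets. They were Tmem41b (1.23, adjusted p = 0.000361), Vmp1 (1.14, 0.00254) and Wdr45 (1.41, 0.00449). The 6 probe sets of Tmem41b went both ways, with 3 higher, 1 lower and 2 that did not pass. By brightest probe set 1 rose and 1 fell of the 9, against 20.1% and 14.7% of all genes. By the mean 4 rose and 0 fell, where 22.1% and 12.8% of all genes did. In the conjugation step, Atg16l1, which anchors the conjugate of Atg12 and Atg5 to membrane, showed the largest fall of the list. Its signals were 4750, 5391, 4265 and 4978 in oocytes and 281.8, 737.1, 613.0 and 531.1 in embryos, a change of -3.22 ± 0.32 (adjusted p = 1.99e-06). Those groups were far apart on all arrays. Of the other 5 conjugation genes, the Atg8 protease Atg4b rose (1.17 ± 0.26) and its relative Atg4a fell (-1.08 ± 0.36). In all, 1 of 6 conjugation genes rose and 2 fell, against 20.1% and 14.7% of all genes. Atg4b did not pass with each array centred on its median (0.86, adjusted p = 0.106). Atg4a lost its call without any 1 of MII arrays 1 to 3 or one-cell array 3 (adjusted p from 0.0525 to 0.0862), with centring (-1.39, 0.0503), with the control covariate (-0.65, 0.232) and in the mean over its probe sets (-0.71, 0.0541). The Atg8 genes Gabarapl1 (0.53 ± 0.57) and Gabarapl2 (-0.37 ± 0.30) did not pass, so 3 of the 5 Atg8 genes measured rose on the brightest probe set, against 20.1% of all genes. Map1lc3b is 1 of the 3, and its call was lost under 5 settings and with any of 5 arrays left out, as well as in the mean over its probe sets. Atg4b, Atg4a, Gabarapl1, Gabarapl2, Atg2b, Tmem41b, Vmp1 and Wdr45 were chosen for naming after their values were seen.

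Of 11 cargo receptors and adaptors measured, 6 fell and 2 rose on the brightest probe set, against 14.7% and 20.1% of all genes. Tollip, a ubiquitin-binding adaptor, fell on its brightest probe set (-2.13 ± 0.27, from 1989 ± 410 to 443 ± 49.1, SD, n = 4), while its other probe set did not pass (0.23 ± 0.35) and the mean of both was -0.95. The other 5 falls, named after their values were seen, were Wdfy3 (-2.08 ± 0.27), Tax1bp1 (-1.69 ± 0.41), the mitochondrial receptors Bnip3 (-1.30 ± 0.28) and Fundc1 (-1.28 ± 0.35), and Nbr1, the relative of Sqstm1 (-1.11 ± 0.37). Averaged over the probe sets of each gene, Wdfy3 (-0.58, adjusted p = 0.0662) and Nbr1 (-0.42, 0.271) did not pass, which leaves 4 falls and 2 rises. With the control covariate Tax1bp1 (-0.80, adjusted p = 0.0804), Fundc1 (-0.94, 0.087) and Nbr1 (-0.41, 0.387) did not pass, which leaves 3 falls and 2 rises. Nbr1 also lost its call after quantile normalization (-0.67, adjusted p = 0.129), the same without one-cell array 1 (-0.37, 0.212), with centring (-1.42, 0.0897), with no filter (-1.11, 0.0608) and without any 1 of MII arrays 1 to 3 or one-cell array 4 (adjusted p from 0.053 to 0.0864). Without one-cell array 1 and with signals as deposited, the fall of Nbr1 was -0.71 (adjusted p = 0.037). The 2 rises were Calcoco1 (2.13 ± 0.28), a receptor for the endoplasmic reticulum and Golgi, and Fkbp8 (2.34 ± 0.42), a mitochondrial receptor that started from 40.8 ± 18.3 (SD, n = 4).

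**Figure D4:**
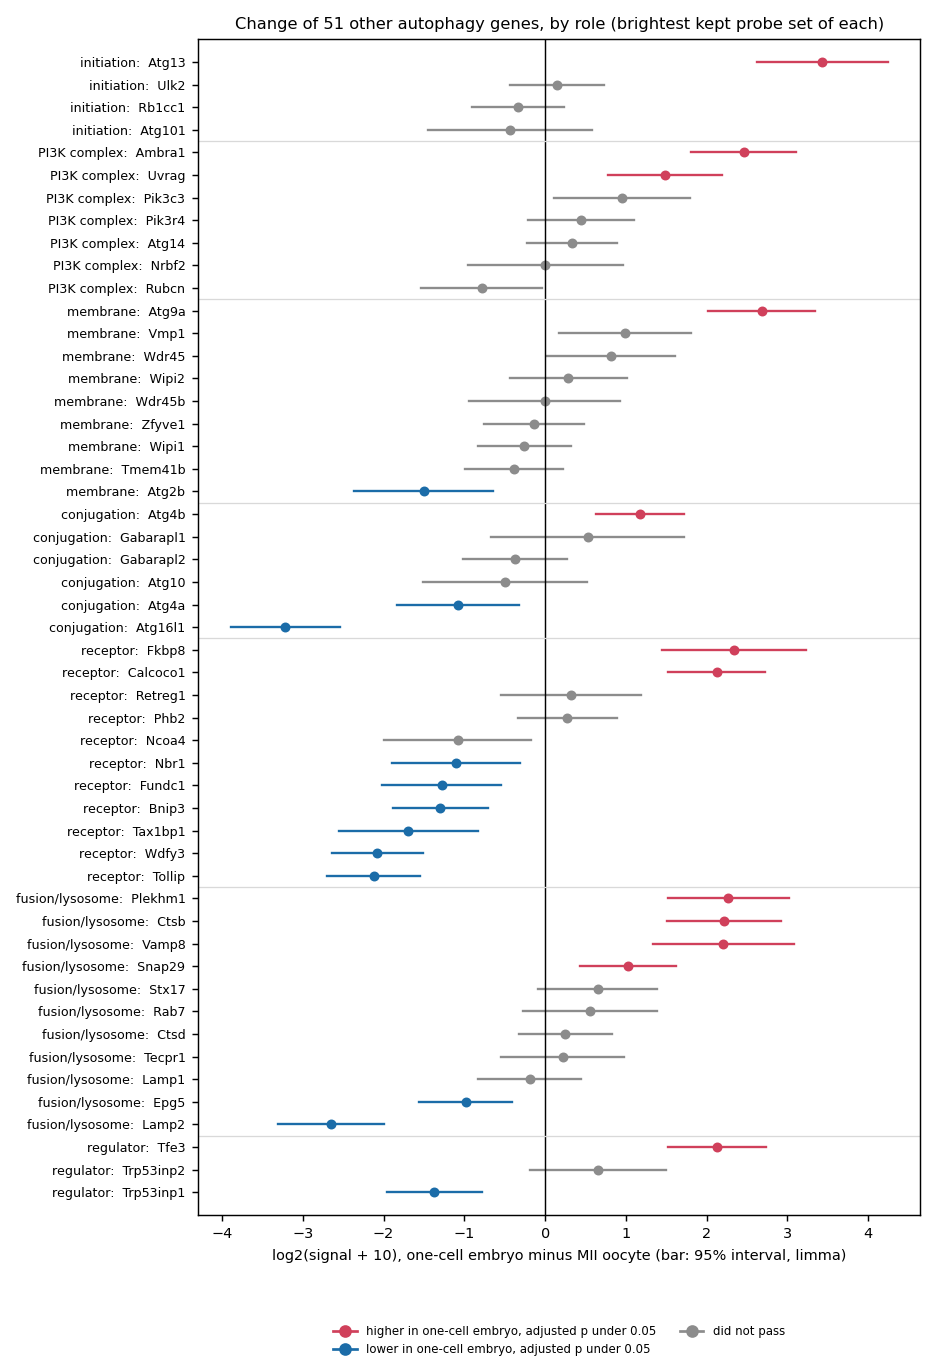
Log2 change from MII oocyte to one-cell embryo, with an offset of 10, of the 51 other autophagy genes measured, grouped by role, with 95% limma intervals. Points in red (12) passed as higher, blue (12) as lower and grey (27) did not pass; 6 of the 11 cargo receptors lie in blue.

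At the last step, fusion with the lysosome and breakdown, 11 genes were measured. On the brightest probe set 4 of the 11 rose (36.4%, against 20.1% of all genes) and 2 fell (18.2%, against 14.7%). In the mean over the probe sets of each gene 6 rose (54.5%, against 22.1%) and 2 fell (18.2%, against 12.8%). Stx17 (1.49, limma adjusted p = 0.000972) and Rab7 (0.87, 0.0206), named after their values were seen, passed as higher in the mean but not on their brightest probe sets. Of the 3 other Stx17 probe sets, 1 rose (4.05 ± 0.37) and 2 did not pass. The SNARE protein Vamp8 (2.21 ± 0.41), the tethering adaptor Plekhm1 (2.27 ± 0.35) and the lysosomal protease cathepsin B (Ctsb, 2.22 ± 0.33) rose on their brightest probe sets. The other kept Ctsb probe set, of 5 on the array, did not pass (-0.01 ± 0.51). Averaged over both kept probe sets, Ctsb changed by 1.11 (limma adjusted p = 0.0229). The lysosomal membrane protein Lamp2 fell on both of its kept probe sets (-2.65 ± 0.31 and -2.38 ± 0.38), of 4 on the array. Its brightest read 837.6, 701.8, 894.1 and 569.1 in MII oocytes and 60.3, 116.3, 154.9 and 128.0 in one-cell embryos. Every embryo value lay far below the oocytes, whereas its relative Lamp1 (-0.19 ± 0.30), named after its value was seen, did not pass. Tfe3, a transcription factor of lysosome and autophagy genes, rose from 261 ± 61.2 to 1182 ± 290 (SD, n = 4), a change of 2.13 ± 0.29 (adjusted p = 3.21e-05). Of 3 transcriptional regulators measured, 1 rose and 1 fell, against 20.1% and 14.7% of all genes. The fall was that of Trp53inp1 (-1.37 ± 0.28, adjusted p = 0.00121), named after its value was seen. In the mean over its probe sets Trp53inp1 did not pass (-0.32, 0.318).

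The genes whose array-by-array pattern lay closest to the 2 members with the smallest adjusted p in each direction came from other pathways. Likeness was the root mean square difference over the 8 arrays between log2 values centred on each probe set's own mean. Closest to Map1lc3a (1447883_x_at) were Sars (0.27), Gfer (0.27) and Ddx18 (0.29). Closest to Atg3 (1448993_at) were Gnai3 (0.16), Eps15 (0.17) and Tra2a (0.18). Each of these 6 genes passed the test in the direction of its member, which the way they were chosen fixes.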

How the data were processed

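Polysomal RNA of 4 batches of MII oocytes and 4 of one-cell embryos went through 2 rounds of in vitro transcription with biotin label, per the labels' descriptions. The deposited table gives a linear intensity for each probe set and array. Which array software, scaling and genome build were used is not given in the sources used here, so no coordinates are printed. From the values, the 2% trimmed mean was 150.0 on every array, so intensities were used as deposited. No detection calls were used. The 64 control probe sets were left out of tests. Of the rest, GEO's platform annotation gives 1 symbol to 34945, several to 932 and none to 9160.

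limma 3.58.1 in R 4.3.3 was run on log2(intensity + 10) with a variance trend, two-sided, over 23336 kept probe sets, and the procedure was tested on simulated data. Each gene was read from the kept probe set with the highest mean. Pairs of probe sets of 1 gene were compared by exact permutation tests on within-array differences. Alternatives were quantile normalization, median centring, offsets 1 and 50, other filters, no variance trend, array weights, the replicate block, hybridization controls as a covariate, each array left out, quantile normalization without one-cell array 1, averaged probe sets and a threshold of 0.01.

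The named genes are all members, the 12 largest non-overlapping changes past the test among the other pathway genes, and the 3 nearest patterns of 2 members. Other pathway genes named were chosen after their values were seen. Members and lists were chosen with earlier results of these data known. Of the 60 listed pathway genes, 2 (Optn and Bnip3l) matched no probe set with a single symbol and were not analysed here and 7 were too dim.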

Additional observations from a re-analysis of the deposited data

Results flagged for a closer look

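Among 90 groups of 4 arrays tested for an outlying array (the tested member probe sets and the pathway genes past the test), 2 held one, and chance flags about 1 in 20. Snap29, a SNARE protein of autophagosome fusion, read 101.2 on MII array 2, and the remaining MII arrays lay between 156.9 and 166.1. Plekhm1 read 139.0 on one-cell array 1, below the 377.2 to 433.8 of the remaining one-cell arrays. No member probe set was among them.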

How the results depend on the processing

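Each of the 9 member probe sets past the test has 11 other settings and 8 arrays left out, except Gabarap (1416937_at) and Atg12 (1451746_a_at) with 10 settings, which the filter at the 75th percentile left untested. Of these 169 values, 150 kept their direction and their call, 19 lost the call and none reversed. The losses were those of Ulk1, Map1lc3b (1415928_a_at) and Atg12 (1451746_a_at). The number of member probe sets that rose was 5, and 3 with each array centred on its median or with the filter at the 75th percentile, which tests 16. Leaving out 1 array gave 4 to 6 rises and 3 to 4 falls. Over all probe sets, 4511 rose and 2982 fell, against 2937 rises after centring and 1771 falls at an adjusted p under 0.01. Of 225 values of member probe sets not past the test, 8 passed and 12 changed sign, all 12 without passing. Map1lc3b gave -0.088 (1415929_at) and -0.075 (1415930_a_at) after quantile normalization and -0.0098 (1415929_at) after centring. Becn1 (1435219_x_at) gave -0.0020 and -0.0066 in those settings. Becn1 (1430358_at) gave -0.19 both with the control covariate and after quantile normalization without one-cell array 1, and Becn1 (1437006_x_at) lay between -0.53 and 0.038 over the arrays left out in turn, the latter without MII array 3. With the covariate Atg5 gave 0.0061 (1418235_at) and -0.26 (1418236_s_at) and Sqstm1 -0.0099 (1450957_a_at). Atg5 (1418236_s_at) lay between -0.0039, without one-cell array 1, and 0.59 over the arrays left out in turn. The causes were not tested. Among pathway genes past the test, 432 of 454 values kept the call, 22 lost it and none reversed.

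Same-numbered arrays share only a number: their deviations from the group means correlated at -0.16, -0.11, 0.14 and 0.04 for replicates 1 to 4. With the replicate block, 5 member probe sets rose and 4 fell, the same counts as without it. Map1lc3b (1415928_a_at) lost its call (adjusted p = 0.0574) and Atg5 (1415684_at) gained one (0.0335). The number of arrays limits the precision throughout.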
